A study of Mus musculus with 8 samples.

Results

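Oxidative phosphorylation (OXPHOS) is the set of reactions in the inner mitochondrial membrane by which electrons from NADH and succinate are passed to oxygen while protons are pumped, and the proton gradient drives ATP synthesis. Complex I (NADH dehydrogenase), complex III (the cytochrome bc1 complex), complex IV (cytochrome c oxidase) and ATP synthase (complex V) are each built from subunits of nuclear genes and a few core subunits encoded in mitochondrial DNA, so that both genomes must be expressed to make a working enzyme. Paneth cells (PCs), the secretory cells of the small intestinal crypt, make and secrete large amounts of antimicrobial peptides. The genes described here are the nuclear ones. They were chosen by symbol as the protein-coding genes that start with Ndufa, Ndufb, Ndufc, Ndufs, Ndufv, Uqcr, Cox4, Cox5, Cox6, Cox7, Cox8 or Atp5, which gave 94 of the 55414 genes in the count table. Of these, 38 belonged to complex I, 8 were Ndufaf genes, which encode assembly factors and not subunits, 8 belonged to complex III, 21 to complex IV and 19 to ATP synthase. Ndufa4 and Ndufa4l2 were counted with complex IV, where the NDUFA4 protein is found.

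Bulk RNA-seq had been done on PCs purified by fluorescence-activated cell sorting, with 8 libraries of 1 C57BL/6J mouse each. For 7 days, 4 mice drank Milli-Q water, which is laboratory water freed of ions, and the other 4 drank water with 25 mM ZnSO4. Tumor necrosis factor (TNF), an inflammatory cytokine, was injected into all 8 mice, controls included, 3 hours before collection. There was no group without TNF, so the comparison of zinc with water applies to mice that had received TNF.

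The libraries held 10623658 to 15101627 counts, and a gene at 0 counts may have reached 3 counts by counting error alone, which is 0.179 to 0.369 CPM, the count after scaling libraries to the same size. Summed PC markers were at 391068 to 734032 CPM, above those of goblet cells (10264 to 15271 CPM), crypt stem cells (459 to 1171 CPM) and enterocytes (97.3 to 609 CPM). Enteroendocrine and tuft cell markers reached 12.8 CPM, immune and stromal markers 1.61 CPM and muscle markers 0.4 CPM at most, and the muscle genes Myh11, Actg2, Acta2 and Tnnt2 had no count. Some libraries stood apart. Milli-Q water 3 and 4 were the libraries in which deviations from the gene means fell with transcript length over all genes (Spearman rho -0.33 and -0.34, against 0.00 to 0.25 in the other 6), and zinc 3 held the most enterocyte marker signal (609 CPM, against 97.3 to 204 CPM in the other 7). Comparisons are also given without these libraries, and the part of length or of other cells in the results was not tested.

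The first question was how much of the PC transcriptome these genes took up, and which of them led. Together they held 0.213% to 0.292% of the counts of a library. Per length, as TPM (transcript abundance scaled to the same total in each library, computed here from counts and the canonical transcript length), they summed to 1723 ± 181 (SD, n = 8 libraries), of which 556 came from ATP synthase, 504 from complex IV, 448 from complex I, 201 from complex III and 14.0 from the assembly factors. Among the tested genes the median TPM was 30.3 in complex IV, 27.8 in complex III, 20.3 in ATP synthase, 11.7 in complex I and 1.43 among assembly factors. The assembly factors, which act while complex I is built and are not part of the finished enzyme, were thus the lowest class.

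**Figure D1:**
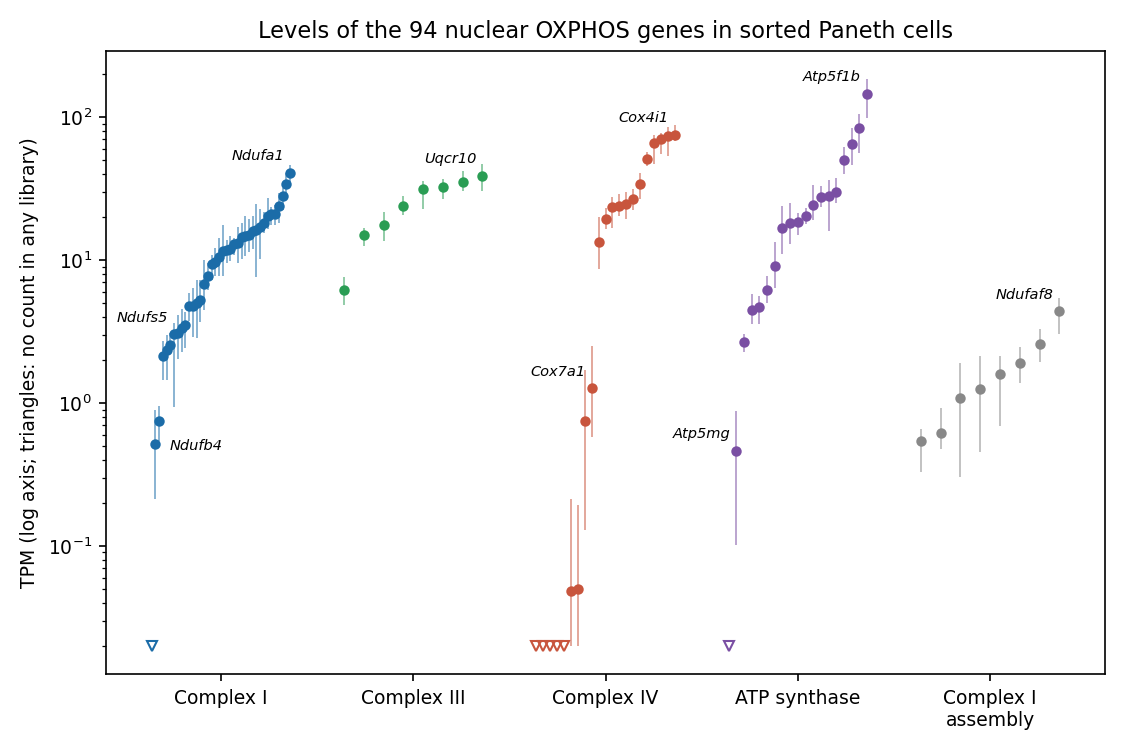
Mean TPM (log axis) of each of the 94 genes by complex, with a line from the lowest to the highest of the 8 libraries, and open triangles for genes without a count. Atp5f1b stood highest at 146 TPM, and the assembly factors lay at 4.39 TPM or below.

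In ATP synthase the beta and alpha subunits of the catalytic head led. Atp5f1b (ENSMUSG00000025393, GRCm39 chromosome 10, 127919132 to 127926261, plus strand) encodes the beta subunit, which carries the catalytic sites, and had the highest TPM of all 94 genes. It was at 152, 152, 99.2 and 129 TPM in Milli-Q water 1 to 4 and at 163, 185, 155 and 134 TPM in zinc 1 to 4. Milli-Q water 3 was the lowest library on this scale and the groups overlapped. Atp5f1a, the alpha subunit, followed at 83.8 ± 17.9 TPM and Atp5f1e, the epsilon subunit, at 64.8 ± 11.2 TPM (SD, n = 8 libraries, also for the TPM values that follow). The membrane ring of ATP synthase is made of identical c subunits, which 3 genes encode with the same mature protein. Of these, Atp5mc3 was at 50 ± 6.83, Atp5mc1 at 29.8 ± 4.33 and Atp5mc2 at 9.09 ± 2.46 TPM, and their ranges of mean ± SD did not overlap. These levels are uncertain as an order of the 3 genes, since 0%, 76.4% and 88.0% of their sequence words, as defined further on, also occur elsewhere in the genome. The inhibitor gene Atp5if1, whose protein blocks ATP hydrolysis, was at 16.7 ± 5.87 TPM.

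In complex IV the 3 highest genes could not be ordered beyond their spread. Cox4i1 (ENSMUSG00000031818, chromosome 8, 121391505 to 121400950, plus strand), the ubiquitous form of subunit 4, was at 75.2 ± 7.20 TPM, Cox8a at 73.9 ± 10.6 and Ndufa4 at 70.6 ± 6.92. Several subunits of complex IV come in tissue forms, and in these PCs 1 form of each was read almost alone. Cox4i1 had 829 to 1195 counts per library and Cox4i2, the form known from lung, had none. Cox6a1 was at 65.8 ± 8.73 TPM and Cox6a2, the heart and muscle form, had no count. Cox6b1 was at 50.9 ± 4.55 TPM, and the testis form Cox6b2 had 0 to 2 counts per library. Cox7a2 was at 23.8 ± 3.09 TPM and its heart and muscle form Cox7a1 at 1.27 ± 0.597 TPM, with 4 to 21 counts. Cox7b was at 26.7 ± 3.40 TPM and Cox7b2 had no count. Neither Cox8b nor Cox8c had a count beside Cox8a, and Ndufa4l2, the form known from hypoxia, had 0 to 3. Cox7a2l, which takes part in joining complex III and complex IV into supercomplexes, was at 13.5 ± 3.23 TPM.

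In complex III, the 3 highest genes were Uqcr10 (ENSMUSG00000059534, chromosome 11, 4651968 to 4654653, minus strand) at 39.1 ± 5.54, Uqcrb at 35.3 ± 3.70 and Uqcrq at 32.5 ± 3.12 TPM, small subunits whose ranges of mean ± SD overlapped. The core proteins Uqcrc1 and Uqcrc2 were at 31.6 ± 4.86 and 17.7 ± 2.53 TPM, and Uqcrfs1, the Rieske iron-sulfur protein, at 15.0 ± 1.61 TPM.

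In complex I, small accessory subunits led. Ndufa1 (ENSMUSG00000016427, chromosome X, 36451241 to 36454849, minus strand) was at 40.8 ± 5.05, Ndufa6 at 34.0 ± 4.21 and Ndufa2 at 27.9 ± 3.41 TPM. Conserved core subunits, most of which hold the flavin or iron-sulfur clusters, were lower than these 3 but not below accessory subunits in general. The median of the tested complex I genes was 11.7 TPM, and the accessory subunit Ndufb2 was at 0.75 TPM. Ndufs8 was at 20.9, Ndufv1 at 17.1, Ndufs7 at 14.5, Ndufv2 at 10.6, Ndufs3 at 7.75 and Ndufs1 at 4.74 TPM. Ndufab1, the mitochondrial acyl carrier protein, was at 2.12 ± 0.417 TPM.

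The order within a complex depends on the length used, and the order between complexes may too. Sums and medians by complex are given with transcript length only. Median transcript lengths of the tested genes were 684 bases in complex IV and 1595 in complex III, against 336 and 300 coding bases. The canonical transcripts of some small subunits are long in this annotation, for example 1537 bases with 246 coding bases for Uqcrq. With coding length in place of transcript length, a choice made after the lengths were seen, Uqcrq was the highest gene of all (121 TPM), before Atp5f1b and Atp5f1e (106 TPM each). Ranks by the 2 lengths had a Spearman correlation of 0.812 over the 81 tested genes, which are not independent replicates.

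Of the 94 genes, 13 did not pass the expression filter. These were the tissue forms Cox4i2, Cox6a2, Cox6b2, Cox7a1, Cox7b2, Cox8b, Cox8c and Ndufa4l2, then Cox5b-ps and Ndufb11b, a gene with the identifier ENSMUSG00000116933 that carries the symbol Atp5po a second time, and the subunits Ndufb4 and Atp5mg. No count at all was found for 7 of the 94. Ndufb4 and Atp5mg are subunits that every complex I and every ATP synthase holds, unlike the tissue forms, and they were picked out after their values were seen, as was Ndufs5. Atp5mg, the g subunit of ATP synthase, had 4, 1, 4 and 7 counts with water and 5, 7, 1 and 3 with zinc. Ndufb4 had 7, 10, 10 and 9 counts with water and 6, 3, 15 and 6 with zinc. Ndufs5, another complex I subunit, passed the filter with 32, 32, 8 and 38 counts with water and 27, 25, 24 and 31 with zinc. The other tested complex I subunits had 32 counts or more in every library, and the tested ATP synthase subunits 71 or more.

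Beside these low counts stands a property of their sequence. Each transcript was split into all its words of 75 bases (a length chosen here), and the share of words with an exact match elsewhere in the GRCm39 genome was counted. That share was 61.8% for Atp5mg, 39.7% for Ndufb4 and 69.0% for Ndufs5. The words shown hold the start codon, in capitals, and are those that also occur at another locus, so a read of this stretch has more than 1 perfect match.

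Ndufb4: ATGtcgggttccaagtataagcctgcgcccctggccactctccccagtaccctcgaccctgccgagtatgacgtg
Ndufs5: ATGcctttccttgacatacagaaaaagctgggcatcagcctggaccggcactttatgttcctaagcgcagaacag
Atp5mg: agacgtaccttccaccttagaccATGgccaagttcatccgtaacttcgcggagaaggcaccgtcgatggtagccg

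The word of Ndufb4 (gene on chromosome 16, 37467242 to 37474815, minus strand) lies also at chr15:73681671-73681745 in Ndufb4c and at chr19:25010506-25010580 in Ndufb4b. The word of Ndufs5 (chromosome 4, 123606481 to 123612002, minus strand) lies also at chr16:42775994-42776068 in Ndufs5-ps. The word of Atp5mg (chromosome 9, 44800118 to 44832055, minus strand) lies also at chr5:24786809-24786883 in Gm10221. Counts were 0 per library for Ndufb4c, at most 2 for Ndufs5-ps and at most 3 for Gm10221, and Ndufb4b was not analysed here.

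Shared words did not go with low counts at every gene. In all, 38 of the 94 genes had a word elsewhere and 17 had over 10% of their words elsewhere. For 5 genes the share was over 50%. Among these Atp5mc2 (88.0%) had 71 to 168 counts per library, Atp5mc1 (76.4%) 222 to 395 and Cox7c (70.0%) 120 to 221. Over the 87 genes with counts, mean TPM and the share of words elsewhere had a Spearman rho of -0.16. The subunits encoded in mitochondrial DNA split more sharply at the upper end. The genes mt-Co2, mt-Atp8, mt-Atp6, mt-Co3 and mt-Nd4l, with 100% of their words also in a nuclear chromosome, and mt-Nd3, with 98.9%, had 0 counts in all 8 libraries. In contrast mt-Cytb, with 0% of its words elsewhere, had 12184 to 20501 counts, and mt-Co1, with 39.8%, had 15062 to 28003. At mt-Nd4, with 61.5%, there were 3542 to 6441 counts, and mt-Nd6, with 0%, had 0 to 17, so a low share did not always go with high counts. The sources used here do not say how reads with several matches were counted, and the part of this in the low counts was not tested.

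**Figure D2:**
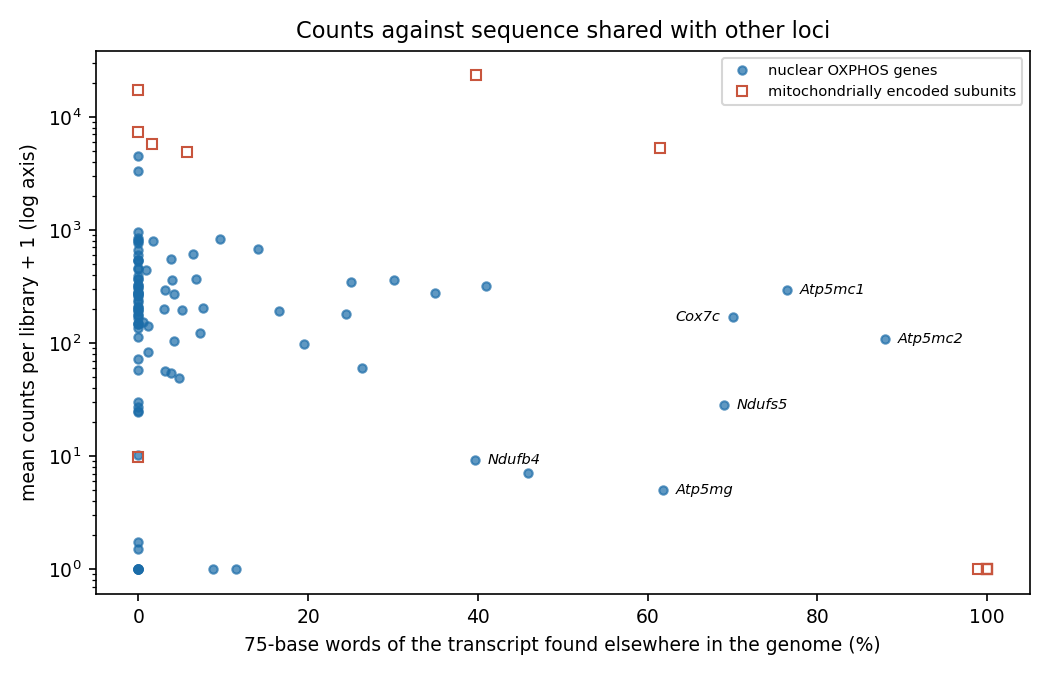
Mean counts per library plus 1 (log axis) against the percent of 75-base words found elsewhere in the genome, for the 94 nuclear genes (circles) and the 13 mitochondrially encoded subunits (squares). The 6 mitochondrial genes at 98.9% to 100% lie at 0 counts, whereas Atp5mc2 at 88.0% keeps 71 to 168 counts per library.

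The second question was whether zinc changed these genes in mice given TNF. In the edgeR quasi-likelihood test, with p-values adjusted over all 10707 genes tested, 0 of the 81 tested genes passed an adjusted p of 0.05. That matched the background, since 0% of all genes passed and the smallest adjusted p, 0.485, was the same for these genes and for the whole table. In bulk samples fewer cells of a type and less RNA per cell cannot be told apart. At an unadjusted p under 0.05 there was 1 gene higher with zinc, Ndufaf3, and 1 gene lower, Ndufaf4, or 1.23% in each direction, where all genes gave 6.42% higher and 3.78% lower. The same 2 genes were those in which the groups did not overlap, again 1.23% in each direction, where all genes gave 2.76% higher and 3.12% lower. DESeq2 called 0 of 87 genes, with 2 at an unadjusted p under 0.05, and limma-voom with sample weights called 0 of 81, with 5. No share over all genes is given for these 2 tests, so their unadjusted counts have no background beside them.

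Both genes are assembly factors of complex I, which the test covered in 8 genes. Ndufaf4 (ENSMUSG00000028261, chromosome 4, 24898079 to 24905001, plus strand) was at 9.98, 9.41, 11.6 and 10.1 CPM with water and at 7.22, 7.82, 6.10 and 7.90 CPM with zinc. Every zinc library lay under every water library. The means were 10.3 ± 0.921 and 7.26 ± 0.829 CPM (SD, n = 4 each), and the log2 fold change was -0.50 with an SE of 0.16 (adjusted p 0.485 by edgeR). Ndufaf3 (ENSMUSG00000070283, chromosome 9, 108442729 to 108444642, minus strand), whose protein binds that of Ndufaf4 during assembly, was at 1.50, 1.49, 0.862 and 1.92 CPM with water and at 2.06, 2.37, 3.44 and 2.34 CPM with zinc. Its groups were apart in the other direction, at 7 to 49 counts per library. The difference was 0.80 on the log2 scale with an SE of 0.326 (adjusted p 0.485 by edgeR). Ndufaf3 overlaps Impdh2 on the opposite strand (341 to 537 counts per library), and the sources used here do not say whether strand was used in counting. Over the 8 assembly factors 2 lay higher and 6 lower with zinc, with a median log2 fold change of -0.26. Besides Ndufaf4, the lower ones were Ndufaf6 (-0.59), Ndufaf1 (-0.31), Ndufaf5 (-0.27), Ndufaf8 (-0.25) and Ndufaf2 (-0.16), and Ndufaf7 lay higher (0.45), with adjusted p of 0.542 or more for these 6.

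The other genes of smallest p in each direction were 5 subunits and the ATP synthase inhibitor. Ndufv1, the flavin-carrying subunit of complex I where NADH is oxidized, had means of 32.4 ± 2.74 CPM in the water group and 38.9 ± 4.36 CPM in the zinc group and differed by 0.26 on the log2 scale (SE 0.133). Ndufa12, an accessory subunit, differed by 0.30 (SE 0.185). For Atp5if1 the water libraries were at 10.3, 9.35, 15.0 and 12.4 CPM and the zinc libraries at 19.4, 16.6, 19.2 and 9.27 CPM. The last of these was under all water libraries, so the groups overlapped, and the log2 fold change was 0.46 (SE 0.244). Among the lower genes, Uqcrb, a small complex III subunit at the quinone site, was at 23.0, 25.0, 35.6 and 28.1 CPM with water and at 23.6, 22.4, 20.5 and 23.4 CPM with zinc. The difference of -0.31 (SE 0.154) was largest against Milli-Q water 3, and 40.9% of the words of Uqcrb occur elsewhere. Without Milli-Q water replicate 3 it was -0.18, and -0.08 with the length and GC correction described further on. Uqcrq differed by -0.39 (SE 0.20) and Atp5mk by -0.41 (SE 0.204), both with their highest values in Milli-Q water 3 (95.4 and 15.0 CPM). In the 6 libraries other than Milli-Q water 3 and 4 they were at -0.02 and -0.08. The edgeR adjusted p of these 6 genes was between 0.491 and 0.535. As with Ndufaf3, strand is a limit for Atp5mk, which had 99 to 153 counts per library. It overlaps Pdcd11 (288 to 600 counts) and Taf5 (30 to 88 counts) on the opposite strand.

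By complex, the direction of the medians was small and depended on the scaling. On TMM-scaled counts 54 of the 81 genes lay lower with zinc (66.7%, against 49.2% of all genes tested) and 27 higher, with a median log2 fold change of -0.08 against 0.006 over all genes. All 8 genes of complex III and 11 of 12 in complex IV lay lower, with medians of -0.16 and -0.13. In complex I, 16 lay higher and 20 lower (median -0.03), and in ATP synthase 8 and 9 (median -0.05). With upper-quartile scaling the medians of complex I and ATP synthase turned to 0.019 and 0.006. As a plain share of each library's counts the group means had the other order. The genes held 0.236%, 0.232%, 0.232% and 0.247% of the counts with water (0.237% ± 0.0074) and 0.268%, 0.273%, 0.292% and 0.213% with zinc (0.261% ± 0.0339; SD, n = 4 each), and 58 of the 81 (71.6%) had a higher mean share with zinc, near the 67.8% of all genes tested. Of the zinc libraries 3 lay above and 1 below all water libraries. Markers of crypt stem cells and enterocytes were likewise highest in zinc 3 and, of the zinc libraries, lowest in zinc 4. Crypt stem cell markers were at 1134, 811, 1171 and 524 CPM in zinc 1 to 4, against 459 to 643 CPM with water. Enterocyte markers were at 204, 150, 609 and 97.3 CPM, against 114 to 145 CPM. Goblet cell markers went otherwise, at 15271, 11990, 10545 and 15030 CPM in zinc 1 to 4, against 10264 to 14895 CPM. Enteroendocrine and tuft cell markers, at 1.29 to 12.8 CPM with zinc, overlapped the 0.862 to 11 CPM with water. The part of other cells in the share was not tested. The most abundant transcripts take a different part of each library, with alpha-defensin (Defa) genes between 34.0% and 44.8% of the counts and highest in Milli-Q water 3. On the TMM scale Milli-Q water 3 had the highest sum over the genes (3062 CPM) and Milli-Q water 2 the lowest (2085 CPM), with the zinc libraries between (2164 to 2699 CPM).

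The direction of the medians also rested on Milli-Q water 3 and 4. Without Milli-Q water replicate 3 the median over the 81 genes was 0.066, without replicate 4 it was -0.003, and without zinc replicate 3 it was -0.118. In the 6 libraries other than Milli-Q water 3 and 4, the median was 0.22 and 71 of 81 genes lay higher with zinc (87.7%, against 52.1% of 11213 genes tested). The medians there were 0.255 in complex I, 0.222 in ATP synthase, 0.194 in complex IV and 0.089 in complex III, and the assembly factors stayed lower at -0.105. That fit sets the 4 zinc libraries against Milli-Q water 1 and 2 alone. In these water libraries the genes had median deviations of -0.20 and -0.26, against 0.37 and 0.22 in the water libraries left out. The turn of sign thus largely follows from which libraries were left out and is no separate sign of a direction with zinc. No gene passed in these 6 libraries either (edgeR, smallest adjusted p 0.855 against 0.181 to 0.855 over all alternatives). At an unadjusted p under 0.05 there were 3 by edgeR, for which no share over all genes is given. After correction of each library for transcript length and GC content, 37 of the 81 genes lay higher with a median of -0.005. Ndufaf4 kept its direction under these settings (-0.43 in the 6 libraries, -0.36 after correction), as did Ndufaf3 (0.76 and 0.77). Both were picked as genes whose groups did not overlap in the 8 libraries. Leaving out water libraries could therefore hardly turn their direction, and the kept sign is no independent support.

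**Figure D3:**
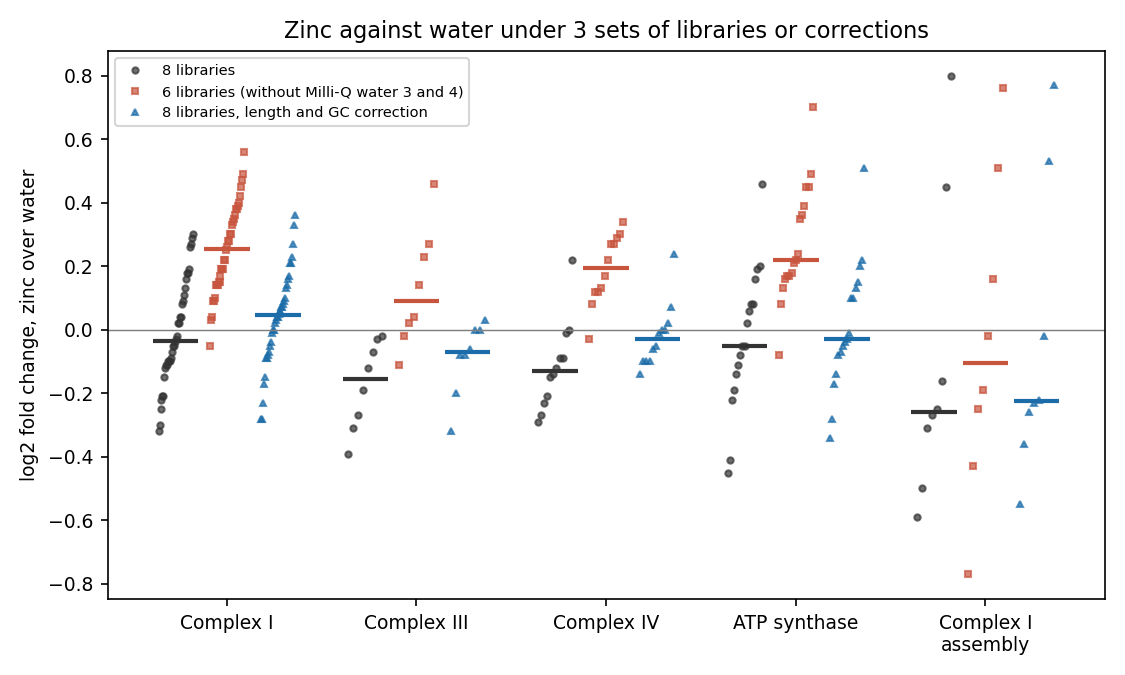
Log2 fold change of each tested gene, zinc over water, by complex, with bars at the medians, for all 8 libraries, for the 6 libraries other than Milli-Q water 3 and 4, and after length and GC correction. The median of complex I is -0.03, 0.255 and 0.046 in turn, and that of complex III is -0.16, 0.089 and -0.066.

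How the genes differed between mice was larger than how they differed between groups. The median deviation of the 81 genes from their means, in log2 CPM, was -0.20, -0.26, 0.37 and 0.22 in Milli-Q water 1 to 4 and 0.10, -0.09, 0.14 and -0.20 in zinc 1 to 4, while the median over all genes tested was between 0.01 and 0.03 in every library. The 2 ends of this range, Milli-Q water 3 and Milli-Q water 2, belong to 1 group. The genes moved together: 71 of 81 lay above their own mean in Milli-Q water 3 and 70 in Milli-Q water 4, and 7 and 6 did so in Milli-Q water 2 and zinc 4. The first principal component of these 81 genes held 58.9% of their variance, with weights from -0.44 in Milli-Q water 2 to 0.63 in Milli-Q water 3. Milli-Q water 3 was the highest library for 46 of the 81 genes, among them 7 of the 8 in complex III and 23 of 36 in complex I, whereas 6 of 12 in complex IV were highest in Milli-Q water 4. For the first component and the highest library, no matching values over all genes tested are given. Whether these 2 traits are particular to the OXPHOS genes was therefore not tested. In Milli-Q water 3 the medians were 0.54 in complex III, 0.39 in ATP synthase, 0.36 in complex I and 0.35 in complex IV, above the 0.20 of the assembly factors.

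**Figure D4:**
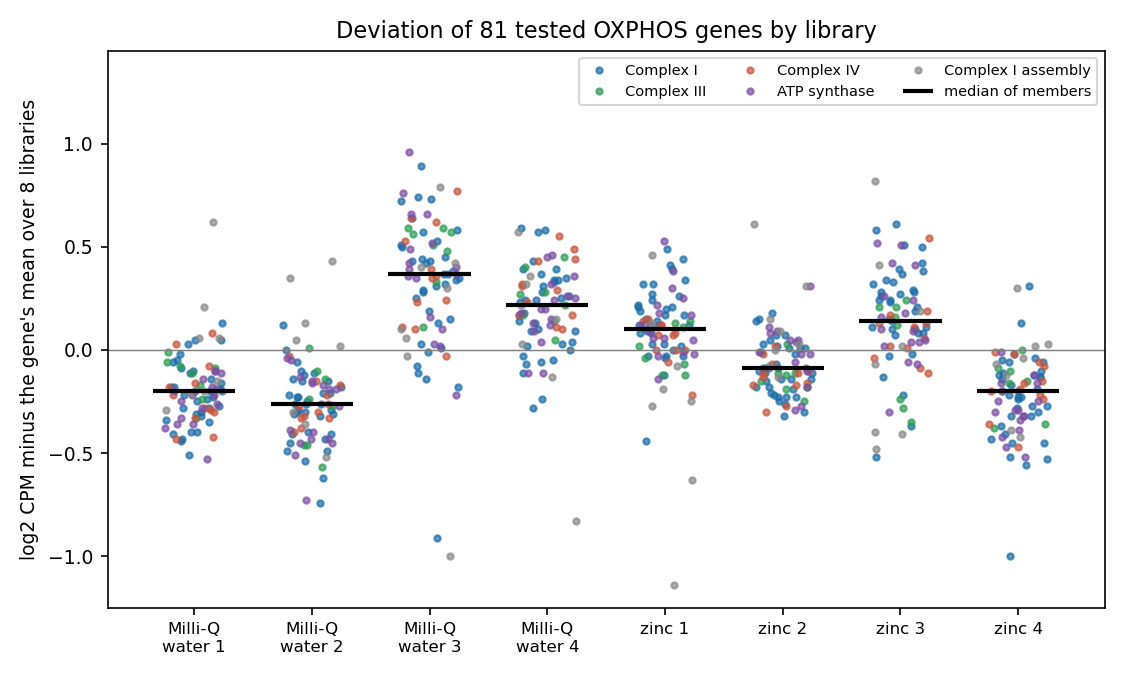
Log2 CPM of each of the 81 tested genes minus its mean over the 8 libraries, 1 point per gene coloured by complex, with a bar at the median. The medians are 0.37 and 0.22 in Milli-Q water 3 and 4 and -0.20 and -0.26 in Milli-Q water 1 and 2.

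Since deviations in Milli-Q water 3 and 4 fell with length over all genes, these genes were set against length too. The part of length in their values was not tested. The median canonical transcript length of the 81 genes was 1154 bases and their median coding length 438 bases. Across the 81 genes the deviation fell with canonical length in Milli-Q water 3 and 4 (Spearman rho -0.17 and -0.18, against -0.03 to 0.18 in the other 6 libraries). With coding length the rho was -0.35 and -0.41, against 0.06 to 0.35 in the others, and with the merged length of all exons it was 0.06 and -0.01. The trend among these genes thus depended on which length was used. Over all coding genes it was the same for both, -0.34 and -0.34 with canonical length and -0.35 and -0.34 with coding length. Genes share their library in such a correlation and are not independent replicates.

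The shortest and the longest of the tested transcripts did not form 2 groups. Of the 3 shortest, Atp5me (371 bases), Atp5f1e (429 bases) and Uqcr10 (448 bases) deviated by 0.36, 0.96 and 0.59 in Milli-Q water 3. Of the 3 longest, Ndufb2 (4389 bases, of which 315 are coding), Ndufaf1 (4780 bases) and Ndufa10 (7389 bases) deviated by 0.58, 0.30 and 0.01. Atp5f1e, the smallest by coding length at 156 bases, was at 29.1, 25.8, 67.8 and 47.4 CPM with water and at 37.4, 28.4, 33.1 and 25.1 CPM with zinc. The groups overlapped.

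Beside other genes of like coding length, the OXPHOS genes lay higher in Milli-Q water 3 in all 4 ranges, by little between 300 and 500 bases. Under 300 coding bases, the median deviation in Milli-Q water 3 was 0.53 for 18 OXPHOS genes and 0.40 for 163 other coding genes. Between 300 and 500 bases, the range with the most OXPHOS genes, it was 0.33 for 28 of them and 0.30 for 650 others. Between 500 and 1000 bases it was 0.41 for 22 OXPHOS genes and 0.15 for 2361 others. From 1000 bases it was 0.11 for 13 OXPHOS genes and -0.06 for 7110 others. In that range the OXPHOS genes were also higher than the others in zinc 1 (0.17 against 0.03) and zinc 3 (0.24 against 0.03), so a higher median was not particular to Milli-Q water 3. By canonical length the medians in Milli-Q water 3 were the same under 1000 bases, 0.39 for 37 OXPHOS genes and 0.39 for 377 others. They were 0.29 and 0.20 between 1000 and 2000 bases, 0.40 and 0.06 between 2000 and 3000, and 0.37 and -0.08 from 3000 bases. Those ranges held 23, 12 and 9 OXPHOS genes. In Milli-Q water 2 the OXPHOS genes were lower than the others in the 4 ranges of coding length (-0.33, -0.24, -0.29 and -0.19 against -0.15, -0.13, -0.03 and 0.05). After correction for length and GC content the medians of the 81 genes were 0.14 and 0.09 in Milli-Q water 3 and 4 and -0.11 in both Milli-Q water 1 and 2. The correction, fitted over all genes, did not remove length among these genes but turned its sign, with a rho of 0.30 and 0.12 in Milli-Q water 3 and 4 and -0.29 in both Milli-Q water 1 and 2. These are descriptions of single libraries and were not tested.

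**Figure D5:**
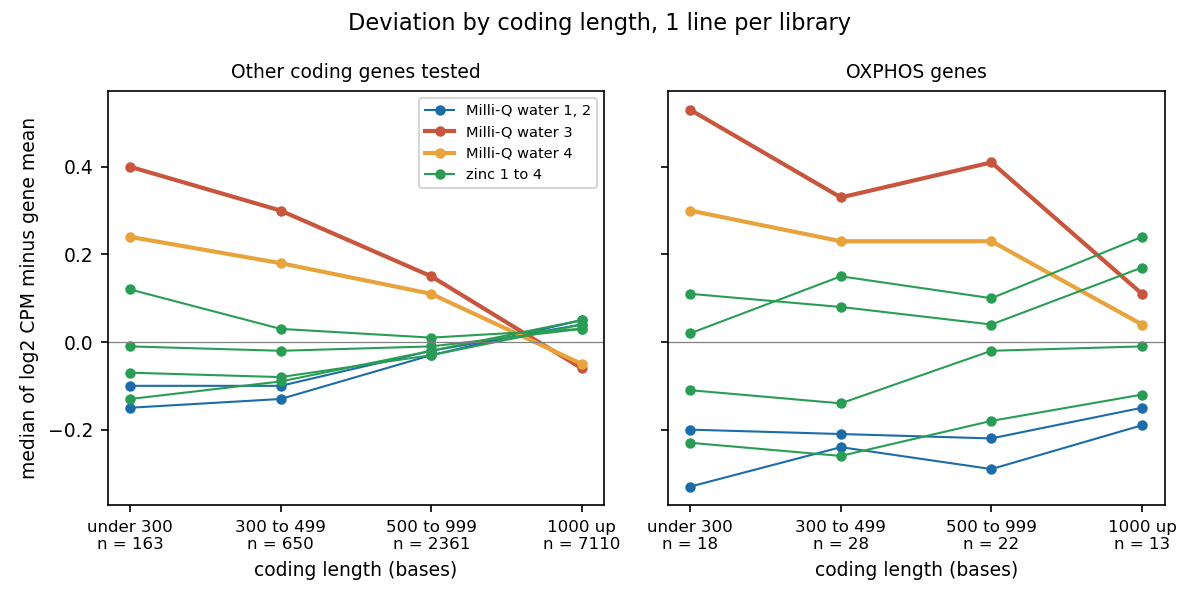
Median of log2 CPM minus the gene mean in 4 ranges of coding length (x axis, in bases, with the number of genes), 1 line per library, for other coding genes on the left and OXPHOS genes on the right. Milli-Q water 3 falls from 0.40 to -0.06 among other genes and from 0.53 to 0.11 among OXPHOS genes. The gap between libraries is wider among OXPHOS genes in all 4 ranges.

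Further genes of the pathway were counted by lists of known members, and 0 passed the edgeR test in any list. Complex II, which oxidizes succinate, had 4 of 4 genes higher with zinc (median 0.05), led by Sdha, its flavoprotein, at 81.8 ± 9.60 CPM in the water group and 103 ± 9.86 CPM in the zinc group (log2 fold change 0.33, SE 0.144, edgeR adjusted p 0.485). Cycs and Cyc1, the cytochromes c and c1, were both lower (median -0.20). The mitochondrially encoded list had 7 of its 13 genes tested, all lower with a median of -0.32, and smallest p for mt-Nd2 (-0.36, SE 0.178, edgeR adjusted p 0.491). In the 6 libraries other than Milli-Q water 3 and 4 the median was -0.07, with 6 of the 7 lower. These 13 genes held 0.469% to 0.541% of the counts with water and 0.404% to 0.57% with zinc. Per count of the 94 nuclear genes there were 2.26, 2.02, 2.28 and 2.19 mitochondrial counts with water and 1.51, 2.09, 1.78 and 1.94 with zinc, so that zinc 2 lay within the water range and 3 zinc libraries under it. This ratio is free of the scaling factor, but the 6 mitochondrial genes without counts add nothing to it.

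Assembly factors other than the Ndufaf genes were split evenly, 25 higher and 24 lower of 49 tested (median 0.01), with smallest p for Ecsit (0.49, SE 0.179), a complex I assembly factor. Of 16 genes of the TCA cycle and pyruvate dehydrogenase, 13 lay higher (median 0.10), led by Fh1, fumarate hydratase (0.53, SE 0.203). Of 14 regulators, 8 lay higher (median 0.05), led by Ppargc1a, a coactivator of mitochondrial gene expression, at 0.798 ± 0.242 CPM in the water group and 1.80 ± 0.692 CPM in the zinc group (1.13, SE 0.403). The edgeR adjusted p of these 3 genes was 0.485. Of all genes tested, 49.2% lay lower with zinc. The lists also differed in median transcript length, with 3141 bases for complex II, 2967 for the TCA cycle list, 3832 for regulators and 1144 for the mitochondrially encoded list. Only the last is also given in the 6 libraries other than Milli-Q water 3 and 4, and the part of length was not tested.

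Promoters were searched for the letters of 6 motifs known from such genes, on both strands, in the windows of 250 bases before to 50 after the start that RefSeq sequences of the GRCm38.p6 build gave for 73 of the 94 genes. GCGCATGCG, letters bound by NRF1, was in 13.7% of them, against 3.96% of 8378 promoters of tested genes and 1.81% of all 27025. AAGATGGCG (YY1) was in 9.59%, against 3.75% and 1.49%. CCGGAAGT, letters of ETS factors such as GABPA, was in 6.85% against 9.29% and 4%, GGGCGG (SP1) in 43.8% against 67% and 35.9%, TATAAA in 9.59% against 6.76% and 14.2%, and TCAAGGTCA (ESRRA) in 1.37% against 0.203% and 0.407%. No letters of the 6 were in 22 of the 73 windows. Shown are the 150 bases before the start of Ndufaf4 and Ndufa8, which alone hold both the NRF1 and the SP1 letters there, and of Atp5f1b, the highest gene, with motif letters in capitals.

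Ndufaf4: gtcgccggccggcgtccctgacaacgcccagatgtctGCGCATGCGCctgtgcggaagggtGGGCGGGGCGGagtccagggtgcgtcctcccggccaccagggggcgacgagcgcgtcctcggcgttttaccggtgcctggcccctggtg
Ndufa8: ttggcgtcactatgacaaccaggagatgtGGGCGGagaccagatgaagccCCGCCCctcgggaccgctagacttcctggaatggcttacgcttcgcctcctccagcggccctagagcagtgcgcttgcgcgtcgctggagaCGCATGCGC
Atp5f1b: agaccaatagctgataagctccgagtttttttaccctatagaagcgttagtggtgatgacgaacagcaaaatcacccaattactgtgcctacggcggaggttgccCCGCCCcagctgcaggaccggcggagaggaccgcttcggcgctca

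In GRCm38.p6 these are chr4:24897933-24898082 on the plus strand, chr2:36049339-36049488 on the minus strand and chr10:128083157-128083306 on the plus strand. In Ndufaf4 the SP1 letters occur in overlapping runs, and the NRF1 letters read on both strands. Ndufa8, an accessory complex I subunit, was at 14.8 ± 2.99 TPM and differed by 0.02 between the groups (SE 0.20, edgeR adjusted p 0.98). A match is a description of the sequence, and binding was not measured.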

How the data were processed

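The authors deposited raw read counts per Ensembl gene, whole numbers with 1 column per mouse. Per the labels, polyadenylated RNA was made into stranded libraries, and the submitters' processing notes name STAR 2.7.10a, FastQC 0.12.0, DESeq2 and the mm39 build. The counter, its strand setting, the annotation release and the handling of reads with several matches are not given in the sources used here. Groups came from the sample labels, and all 8 libraries were used. No sequencing or library batch is named.

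Identifiers were matched to GENCODE M39 (GRCm39), which named 54749 of them. The 665 others held 0.00443% of counts. The main test of zinc against water was edgeR's quasi-likelihood test (edgeR 4.0.16 in R 4.3.3), after TMM scaling and the default filter, which kept 10707 genes with 99.89% of counts, and Benjamini-Hochberg adjustment at 0.05. The biological variation (BCV) was 0.269, and CPM values use the TMM-scaled library sizes. Deviations are of log2 CPM with a prior count of 2. On simulated counts with 200 genes changed, edgeR called 139 of 10534 genes, 6 of them unchanged, and recovered 88.8% of changes of 2 and 46.5% of changes of 1 on the log2 scale.

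The members and lists were chosen with earlier results of these data known. Named for level were the 3 highest genes of each complex, tissue forms and core subunits. Named for change were the 4 genes with the lowest p among those higher and among those lower with zinc, for length the 3 shortest and 3 longest tested, and in each further list the gene of smallest p. Any further gene was picked with its values in view. One gene within the naming rule is not reported here. The alternatives took other scaling (upper-quartile factors, size factors of DESeq2, factors without Defa genes), other filters (none, or at least 100 counts and 1 CPM in 4 libraries), other tests (limma-voom with sample weights in limma 3.58.1, and DESeq2 1.42.0), the replicate number as a block, each library left out, 6 libraries, and a lowess correction (span 0.3) for length and GC content, and, chosen after seeing the data, coding length, the share of counts in 6 libraries and the mitochondrially encoded list in 6 libraries.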

Additional observations from a re-analysis of the deposited data

Results flagged for a closer look

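Within each group of 4, the summed shares of counts, the median deviations by complex and the CPM of the 8 genes named for change were examined for a single distant library with Dixon's test at the 95% level, which sets the gap to the closest library against the whole range. This was met in 1 of 40 groups, and chance alone flags about 1 in 20. Milli-Q water 3 had 0.0941% of its counts in ATP synthase genes, against 0.102% to 0.104% in the other 3 water libraries (gap over range 0.858). On the TMM scale the same library had the highest sum of these genes (1243 CPM), so its place depends on the scaling.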

How the results depend on the processing

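Under each of the 19 alternative fits 0 of the nuclear OXPHOS genes passed the adjusted threshold, and the 8 genes named for change kept their direction. Those 8 were picked by p in the same libraries, so a kept direction is no independent support. The median log2 fold change of the tested genes, -0.082 with all 8 libraries, moved to 0.219 in the 6 libraries other than Milli-Q water 3 and 4. There the medians were 0.255 for complex I, 0.194 for complex IV, 0.222 for ATP synthase and -0.105 for the assembly factors, which were at -0.134 by limma-voom with sample weights. With 1 library left out, the median of all tested genes ran from -0.185 to 0.066. The rho of deviation with length, -0.17 in Milli-Q water 3 and -0.18 in Milli-Q water 4, was 0.06 and -0.01 with merged exon length and -0.35 and -0.41 with coding length, and -0.09 in Milli-Q water 4 among genes with at most 10% shared words. The cause was not tested. The difference in the share of counts, 0.0247 percentage points higher with zinc, ran from 0.0145 to 0.0408 with 1 library left out. Of 306 values under alternatives, 294 stayed within the spread between libraries or on the same side of the threshold.

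The groups share replicate numbers, but same-numbered libraries did not deviate together (r of -0.0275, 0.00817, 0.0249 and 0.0266). Differently numbered libraries had r from -0.135 to 0.165. These values gave no sign of pairing by number but cannot exclude it. With the replicate number as a block, 0 genes passed and the median was -0.059. Depth limits the low genes, since Ndufaf3 and Ndufs5 had 7 to 49 and 8 to 38 counts per library.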
